A study of Mus musculus with 2 samples.

Results

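The MYC, MAX and MXD network is a family of basic helix-loop-helix leucine zipper transcription factors, most of which need MAX as a partner to bind DNA. The 10 genes described here are Myc, Mycn, Mycl, Max, Mxd1, Mxd3, Mxd4, Mxi1, Mnt and Mlx. They were chosen by symbol, and each symbol matched 1 row of a table of 54531 Ensembl genes. The table holds gene expression in haematopoietic stem cells (HSCs) sorted from mouse bone marrow. Cdh5-Cre;Angptl2fl/fl mice carried floxed alleles of Angptl2, which encodes a secreted angiopoietin-like protein, and expressed Cre from the Cdh5 (VE-cadherin) promoter, which is active in endothelium and, during development, in the precursors of blood cells. That genotype would remove Angptl2 from endothelial cells, and whether the sorted HSCs also lost it was not tested. The control mice are labelled Angptl2fl/fl, which names the same floxed alleles. The description and column name of the control sample refer instead to Cdh5 and Cre without a floxed allele. Whether the control mice carried Cre, the floxed alleles or both is therefore not settled by the labels. Age, sex, sort markers and the number of mice per library are not stated in those labels. Each genotype had 1 library, called here the deletion library and the control library. No test across samples was therefore possible, the differences have no replicate check, and "higher" and "lower" describe these 2 libraries.

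MYC proteins bind DNA as dimers with MAX at the E-box CACGTG and activate genes of ribosome assembly, metabolism and cell division. The MXD proteins and MNT compete for MAX, bind the same element and recruit the SIN3 histone deacetylase complex to repress it. MLX is a MAX-like partner that links some of the repressors to the nutrient-sensing factors MondoA and ChREBP. In mouse HSCs, Myc and Mycn act redundantly in proliferation and survival, and Myc loss alone leaves stem cells that accumulate without differentiating normally.

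Promoters of several network genes carry the element that the network binds, which is why these E-boxes are shown. RefSeq promoter windows on GRCm38.p6, running from 250 bases before a gene's start to 50 after it, were found for 9 of the 10 genes, all but Myc. CACGTG, a palindrome and therefore the same on both strands, was present in the windows of 4 genes: Max, Mlx, Mnt and Mxd4. It was absent from the windows of Mycn, Mycl, Mxd1 and Mxd3 and from the 3 windows of Mxi1. Of all 32851 windows, 7.15% held it, and of measured genes with a window 12.3%. The Max site straddles the RefSeq start, with its first base at position -3 (chr12:76962234-76962263, minus strand). Those of Mlx (chr11:101087238-101087267, plus strand), Mnt (chr11:74830789-74830818, plus strand) and Mxd4 (chr5:34187912-34187941, minus strand) begin at positions -40, -123 and -219. Capitals mark the E-box, and sequences run 5′ to 3′ on the gene's strand.
Max: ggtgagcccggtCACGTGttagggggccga
Mlx: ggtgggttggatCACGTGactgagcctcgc
Mnt: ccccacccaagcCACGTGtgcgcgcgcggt
Mxd4: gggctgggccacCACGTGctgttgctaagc

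Values are FPKM, fragments per kilobase of gene and per 1000000 fragments. Levels of different genes can be compared only roughly, because the length takes in all annotated exons of a gene, whether used in these cells or not. The FPKM steps put the depth at 16843116 fragments for the deletion library and 17378618 for the control library, and gave a fragment number for 9 of the 10 genes. Intervals are exact 95% counting intervals (Poisson for a level, Clopper-Pearson for a ratio). Without molecular identifiers they cover counting error alone, and they compare 2 libraries, not 2 genotypes. Log2 ratios set deletion over control after adding 1 to each FPKM, so the difference of low genes is understated. Intervals belong to the ratio without the added 1. Angptl2 was at 0.179 FPKM in the deletion library, against 0.265 FPKM in the control library, from 19 and 29 fragments, too few to check the genotype labels. Cdh5 itself had 0 fragments in the deletion library, against 2 in the control library. Genes above 0 numbered 18217 in the deletion library, against 21891 in the control library, and mitochondrially encoded genes took 13.7% of the summed FPKM in the deletion library, against 8.91% in the control library. Leaving the mitochondrially encoded genes out of the scaling turned the direction of no measured network gene. Of 14 HSC marker genes all were detected in both libraries, with sums of 143 and 159 FPKM in the deletion and control libraries. Of the 12 measured ones, 11 had ratios below 0 and 1 above. Their median was -0.17, against -0.011 for all genes, and none reached 2-fold. Erythroid markers were more abundant, at sums of 3060 and 2640 FPKM in the deletion and control libraries. Car1 alone was at 1630 FPKM in the deletion library, against 1310 FPKM in the control library, whereas 6 of the 10 had ratios below 0, with a median of -0.066, and 1 was at least 2-fold lower. In such bulk RNA, fewer cells of a type and less RNA per cell cannot be told apart.

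Myc was the most abundant member and hardly differed between the libraries, whereas the repressor genes Mxd1 and Mxd3 were lower in the deletion library. Of the 10 genes, 9 had a mean of at least 1 FPKM, and none of these 9 reached a 2-fold difference. Among all 12325 genes at that minimum, 5.86% did (2.47% higher and 3.38% lower in the deletion library), and among the 10237 protein-coding ones 1.24%. Log2 ratios of the 9 genes ran from -0.70 for Mxd1 to 0.35 for Mycn, with 6 above 0 and 3 below. Their median was 0.076, and that of all genes was -0.011. At a threshold of 1.5-fold, Mxd1 and Mxd3 were past it, both lower, as were 749 of all genes on the lower side (6.08%). The counting interval excluded equality for 7 of the 8 measured genes that have one, 4 above and 3 below. It also did so for 56.9% of 11713 genes in the whole table (26.8% above and 30% below), and for 58.9% of protein-coding ones.

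**Figure D1:**
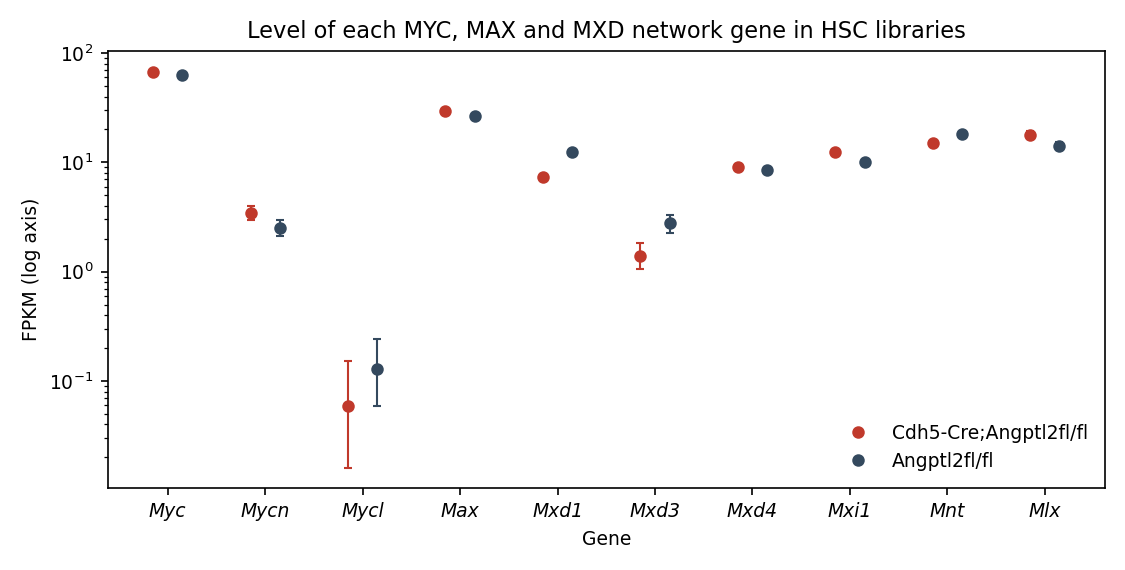
FPKM on a log axis for each of the 10 genes in the Cdh5-Cre;Angptl2fl/fl library (red, left) and the Angptl2fl/fl library (dark, right), 1 library each. Bars are exact 95% Poisson counting intervals, drawn where a fragment number was recovered. Myc stood highest in both, at 66.6 and 63.2 FPKM, and Mxd1 and Mxd3 show the widest gaps among genes above 1 FPKM.

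Among the activators, Myc (ENSMUSG00000022346, chr15:61985391-61990374, plus strand, GRCm38) was at 66.6 FPKM in the deletion library, against 63.2 FPKM in the control library, from 3047 and 2983 fragments. The level intervals were 64.2 to 69.0 FPKM in the deletion library, against 60.9 to 65.5 FPKM in the control library, so they overlapped. The log2 ratio was 0.075, with a counting interval of 0.0025 to 0.15 that barely excluded equality. It became -0.072 when the libraries were scaled to equal summed FPKM, a scaling that moved the median of all genes to -0.16. Of 1352 protein-coding genes within 2-fold of the level of Myc, 70.5% had a ratio farther from 0.

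Mycn (ENSMUSG00000037169, chr12:12936093-12941914, minus strand), the paralog best known from neural tissue, was at 3.46 FPKM in the deletion library, against 2.50 FPKM in the control library, from 192 and 143 fragments. Its log2 ratio of 0.35 was the highest of the family, and the counting interval without the added 1 was 0.15 to 0.79. The ratio ran from 0.17 to 0.46 under 7 alternatives. A ratio farther from 0 was seen in 25.1% of 3152 coding genes of like level. Mycl (ENSMUSG00000028654, chr4:122995652-123002485, plus strand), the third paralog, was at 0.0588 FPKM in the deletion library, against 0.128 FPKM in the control library. With 4 and 9 fragments no difference was detectable at such depth (interval -3.28 to 0.72). Mycn and Mycl mRNA thus stood far below that of Myc in both libraries.

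Max (ENSMUSG00000059436, chr12:76937269-76962201, minus strand), the shared partner of the MYC, MXD and MNT proteins, was at 29.4 FPKM in the deletion library, against 26.4 FPKM in the control library. The fragment numbers were 1779 and 1648, and the level intervals, 28 to 30.8 FPKM in the deletion library, against 25.1 to 27.7 FPKM in the control library, did not overlap. The log2 ratio was 0.15 (counting interval 0.058 to 0.25) and shrank to 0.0076 with equal summed FPKM. Max was the second most abundant member in both libraries.

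Mxd1 (ENSMUSG00000001156, chr6:86647042-86669161, minus strand) encodes a repressor induced when myeloid precursors and other cells differentiate. It was at 7.28 FPKM in the deletion library, against 12.4 FPKM in the control library, from 867 and 1527 fragments. The deletion library thus held 58.6% of the control level, the farthest ratio from 0 in the family at -0.70, although without the added 1 that of Mxd3 was farther. The counting interval was -0.89 to -0.65, and of 4297 coding genes of like level 2.19% had a ratio farther from 0. Under the 8 alternative settings the log2 ratio of Mxd1 stayed between -0.88 and -0.51. Markers of mature neutrophils were lower as well. All 10 of them were detected in both libraries, all 10 had ratios below 0, 8 were at least 2-fold lower, and their summed level was 1450 FPKM in the deletion library, against 2560 FPKM in the control library. Of 10 macrophage and monocyte markers, all detected in both, 9 had ratios below 0 and 5 were at least 2-fold lower. They summed to 123 FPKM in the deletion library, against 319 FPKM in the control library. Most of that gap was Lyz2, a lysozyme gene that neutrophils also express, at 86.1 against 242 FPKM. Progenitor genes of the granulocyte and monocyte lineage went the other way, with 6 of 8 at least 2-fold higher and sums of 2740 FPKM in the deletion library, against 1070 FPKM in the control library. Megakaryocyte markers summed to 173 FPKM in the deletion library, against 79.6 FPKM in the control library, with 3 of 7 measured genes at least 2-fold higher. The list for eosinophils, basophils and mast cells summed to 14.8 against 78.2 FPKM, mostly through the eosinophil gene Prg2 at 2.13 against 49.9 FPKM. The mast cell gene Cpa3 was higher, at 3.68 FPKM in the deletion library, against 1.78 FPKM in the control library. The part of these cells in the Mxd1 difference was not tested.

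Mxd3 (ENSMUSG00000021485, chr13:55325168-55329823, minus strand), a repressor that in mice is expressed in dividing cells around S phase, was at 1.40 FPKM in the deletion library, against 2.77 FPKM in the control library. The numbers were 56 and 114 fragments, and the deletion library held 50.7% of the control level. The log2 ratio was -0.65 with the added 1 and -0.98 without it, with a counting interval of -1.47 to -0.51. Under the 7 alternatives that gave a value it lay between -0.94 with equal summed FPKM and -0.28 with 5 added in place of 1. The value of -0.94 mixes the scaling with the smaller weight of the added 1. Of 2662 coding genes of like level, 8.38% had a ratio farther from 0. Of its exon bases, 4.43% are shared with Prelid1 on the opposite strand, which was at 75.3 FPKM in the deletion library, against 63.5 FPKM in the control library, and whether counting used strand is not stated in the labels. Cell cycle genes had a median of -0.018 over 14 genes, 6 above 0 and 8 below, with ratios from -0.48 to 0.29. They summed to 789 FPKM in the deletion library, against 775 FPKM in the control library. The part of dividing cells in the Mxd3 difference was not tested.

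The remaining MXD genes did not share this pattern. Mxd4 (ENSMUSG00000037235, chr5:34173883-34187720, minus strand), a repressor associated with differentiated and resting cells, was at 9.05 FPKM in the deletion library, against 8.53 FPKM in the control library, from 1293 and 1258 fragments. Its log2 ratio was 0.076, the interval of -0.028 to 0.20 included equality, and the ratio became -0.060 with equal summed FPKM. Mxi1 (ENSMUSG00000025025, chr19:53310518-53375810, plus strand), also called Mxd2, was at 12.5 FPKM in the deletion library, against 10.1 FPKM in the control library. The log2 ratio was 0.28, or 0.15 with equal summed FPKM, and 22.1% of 4253 coding genes of like level lay farther from 0. No whole fragment number was recovered for Mxi1, so it has no interval. Both genes share exon bases with an antisense gene model (6.06% for Mxd4 and 2.84% for Mxi1), and both of those models were listed at 0 in both libraries. The MXD genes therefore split, with Mxd1 and Mxd3 lower, Mxi1 higher and Mxd4 about level in the deletion library.

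Mnt (ENSMUSG00000000282, chr11:74830920-74845725, plus strand) encodes the broadly expressed repressor that is the main standing rival of MYC for MAX. It was at 14.9 FPKM in the deletion library, against 18.2 FPKM in the control library, from 1160 and 1460 fragments. The log2 ratio was -0.27 (counting interval -0.40 to -0.17), or -0.42 with equal summed FPKM, and the level intervals, 14 to 15.8 FPKM in the deletion library, against 17.2 to 19.1 FPKM in the control library, did not overlap. Of 3880 coding genes of like level, 22% lay farther from 0. Mlx (ENSMUSG00000017801, chr11:101087277-101092207, plus strand), the alternative partner of MXD1, MXD4 and MNT, was at 17.7 FPKM in the deletion library, against 14.2 FPKM in the control library, from 596 and 494 fragments. Its log2 ratio was 0.30 (counting interval 0.14 to 0.49), or 0.16 with equal summed FPKM. Of its exon bases, 19.3% are shared with Psmc3ip on the opposite strand, which was at 11.1 FPKM in the deletion library, against 7.22 FPKM in the control library. Fragments there cannot be assigned to either gene if counting ignored strand.

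**Figure D2:**
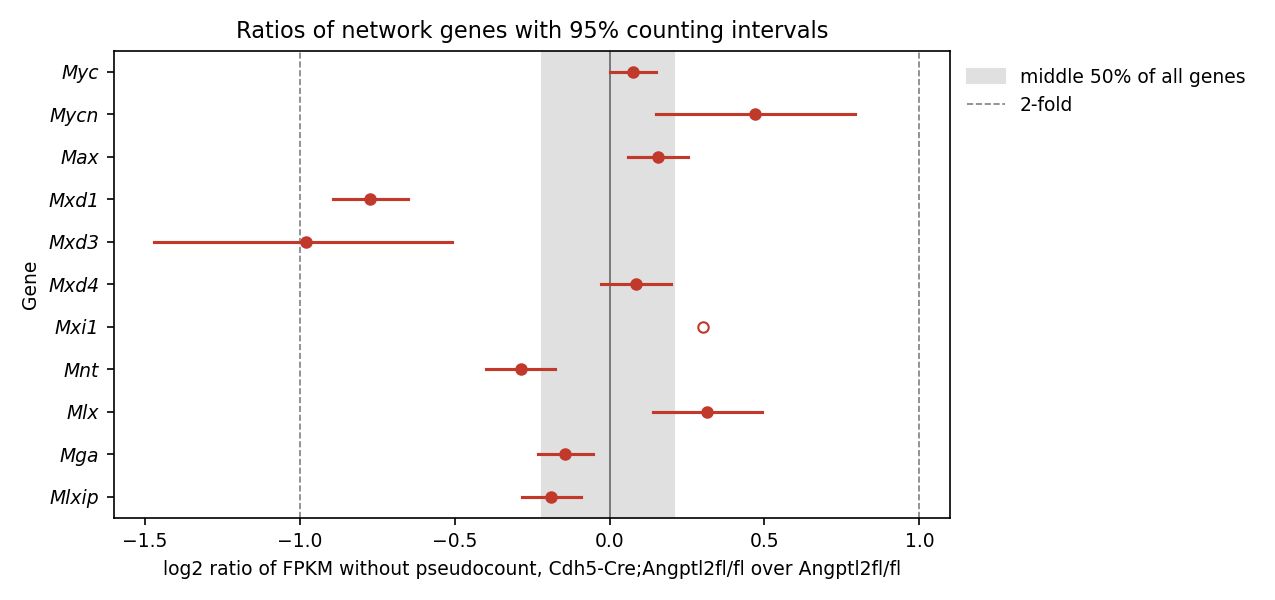
Log2 ratio of FPKM without pseudocount, Cdh5-Cre;Angptl2fl/fl over Angptl2fl/fl, for the 9 network genes at a mean of at least 1 FPKM and for Mga and Mlxip. Lines are exact 95% counting intervals, the open point has none, the grey band holds the middle 50% of all genes (-0.22 to 0.21), and dashed lines mark 2-fold. Mxd1, at -0.77, and Mxd3, at -0.98, lie left of the band with their whole intervals.

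Myc and Max stood highest and Mycl lowest in both libraries, while the genes between them changed places. In the deletion library it ran Myc, Max, Mlx, Mnt, Mxi1, Mxd4, Mxd1, Mycn, Mxd3 and Mycl. In the control library it ran Myc, Max, Mnt, Mlx, Mxd1, Mxi1, Mxd4, Mxd3, Mycn and Mycl. The visible shifts were that of Mxd1, below Mxi1 and Mxd4 in the deletion library only, and the exchange of places between Mlx and Mnt and between Mycn and Mxd3. In the control library the intervals of Mxd3 (2.28 to 3.33 FPKM) and Mycn (2.10 to 2.94 FPKM) overlapped, so their order there was not resolved, and those of Mlx (13 to 15.5 FPKM) and Mxd1 (11.8 to 13.1 FPKM) touched. In the deletion library those of Mycn (2.99 to 3.99 FPKM) and Mxd3 (1.06 to 1.82 FPKM) did not overlap.

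Summed as competitors for MAX, the 3 MYC genes together stood at 70.1 FPKM in the deletion library, against 65.8 FPKM in the control library. The 4 MXD genes with Mnt stood at 45.1 FPKM in the deletion library, against 52.0 FPKM in the control library. The ratio of activator to repressor mRNA was 1.56 in the deletion library, against 1.27 in the control library, which differ by 0.30 on the log2 scale with a counting SE of 0.047. This ratio is formed within each library, so scaling between libraries cannot move it. Without Mxd1, a choice made after seeing the data, it was 1.85 in the deletion library, against 1.66 in the control library, a log2 difference of 0.16. Myc alone made up 57.8% of the summed FPKM of these 8 partners in the deletion library, against 53.6% in the control library. Mxd1 made up 6.32% in the deletion library, against 10.5% in the control library, and Mxi1 10.8% and 8.57% in the deletion and control libraries. Max mRNA was scarcer than the sum of its partners, at 0.255 of that sum in the deletion library, against 0.224 in the control library. Sums and ratios across genes depend on the exon length taken for each gene. They describe mRNA levels, and protein was not measured here.

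**Figure D3:**
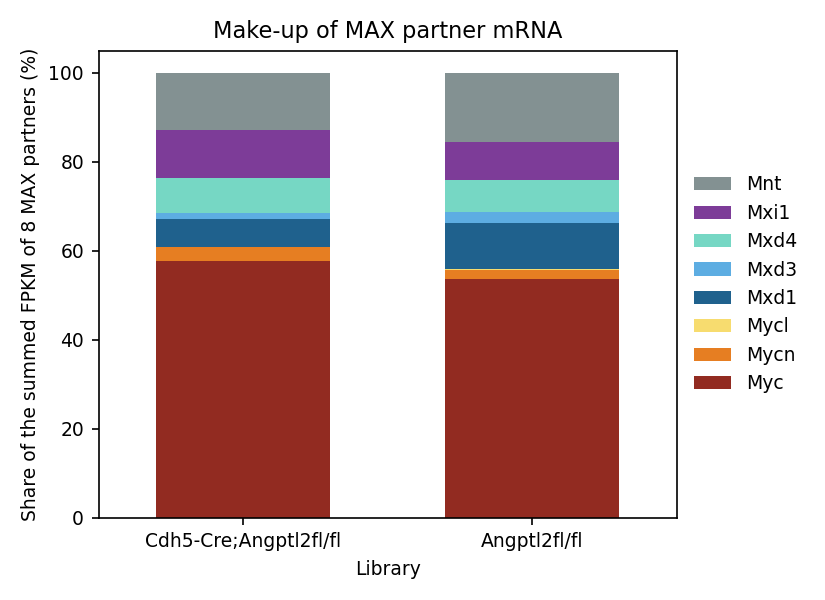
Share of the summed FPKM of 8 MAX partner genes (y axis, percent) taken by each gene in the Cdh5-Cre;Angptl2fl/fl library (left) and the Angptl2fl/fl library (right), 1 library each. Myc is the largest part of both bars, at 57.8% and 53.6%, and the Mxd1 part is 6.32% on the left and 10.5% on the right.

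The outer members of the network pair with MAX or MLX. Mga, a large MAX partner that works with a Polycomb complex, was at 7.38 FPKM in the deletion library, against 8.15 FPKM in the control library, a log2 ratio of -0.13. Mlxip, which encodes MondoA, was at 11.8 FPKM in the deletion library, against 13.4 FPKM in the control library, a log2 ratio of -0.17. Mlxipl, which encodes ChREBP, had 0 fragments in both, which allows up to 0.0322 FPKM in the deletion library, against 0.0312 FPKM in the control library (3 fragments). All 5 listed targets of MondoA and ChREBP had ratios below 0 and none reached 2-fold, with a median of -0.30. That median was -0.13 at a minimum mean of 5 FPKM, -0.16 with 5 added in place of 1 and -0.45 with equal summed FPKM. Acaca and Arrdc4 were lowest, at 3.16 and 2.28 FPKM in the deletion library against 4.31 and 3.15 FPKM in the control library. Txnip, a thioredoxin inhibitor that MondoA induces when glucose is plentiful, had the ratio nearest 0, at 49.7 FPKM in the deletion library, against 53.9 FPKM in the control library, and Fasn came next at 25.5 against 28 FPKM. Of all genes, 51.6% were below 0.

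Of 44 listed growth genes that MYC activates, 42 were measured, 28 had ratios above 0 and 14 below, and none reached 2-fold. Their median was 0.091, against -0.011 for all genes, and became -0.055 with equal summed FPKM, where all genes had -0.16. Npm1 and Ptma were highest. Npm1, the nucleolar histone chaperone nucleophosmin, was at 537 FPKM in the deletion library, against 408 FPKM in the control library, a log2 ratio of 0.40. Ptma (prothymosin alpha) was at 1460 FPKM in the deletion library, against 1160 FPKM in the control library. E2f2, a factor of S phase entry, was lowest at 9.44 against 13.2 FPKM in the deletion and control libraries, followed by Bop1, a ribosome assembly factor, at 48.1 against 57.6 FPKM. Odc1, the first enzyme of polyamine synthesis and a classic MYC target, was at 147 FPKM in the deletion library, against 148 FPKM in the control library. Ncl (nucleolin) stood at 182 against 151 FPKM in the deletion and control libraries, and Ccnd2 (cyclin D2) at 8.44 against 7.72 FPKM.

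Cdk4, the kinase of the G1 phase, is shown with its sequence because it was the only gene of this list with 4 E-boxes in its window, and 8 of all 32851 windows held 4 or more. Its level was 146 FPKM in the deletion library, against 134 FPKM in the control library, a log2 ratio of 0.13 (counting interval 0.087 to 0.18). The stretch runs from position -190 to -1 before its start (chr10:127063345-127063534, plus strand, RefSeq on GRCm38.p6), with E-boxes in capitals.
Cdk4: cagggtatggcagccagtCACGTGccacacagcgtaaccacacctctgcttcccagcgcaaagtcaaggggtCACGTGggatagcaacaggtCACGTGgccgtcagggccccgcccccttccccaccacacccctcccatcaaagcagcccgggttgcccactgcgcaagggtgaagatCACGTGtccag

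Genes with an E-box near the start had nearly the same median ratio as genes without one. Of 8446 measured genes with a promoter window, 1041 (12.3%) held CACGTG. Their median log2 ratio was -0.0047, against -0.016 for the 7405 genes without it. At least 2-fold higher were 0.0961% of the genes with the element and 0.608% of those without, and at least 2-fold lower were 0.672% and 0.756%, with and without it. Among the 1041 genes with the element these shares rest on very few genes. Genes with the element were also somewhat more abundant, with a median level of 10.3 FPKM against 8.70 FPKM.

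**Figure D4:**
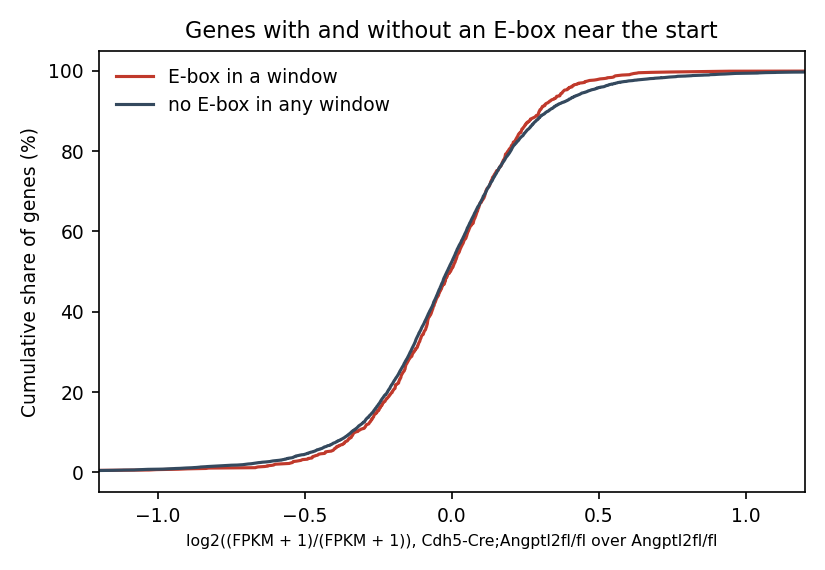
Cumulative share of genes (y axis, percent) by log2((FPKM + 1)/(FPKM + 1)), Cdh5-Cre;Angptl2fl/fl over Angptl2fl/fl (x axis), for 1041 genes with an E-box in a promoter window (red) and 7405 without (dark). The curves nearly coincide, with medians of -0.0047 and -0.016. The curve of genes without the element has the longer upper tail, which holds a small share of either group. Genes beyond the axis are counted but not drawn.

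Genes that MYC represses showed no common direction, with 6 of 12 measured genes above 0, 6 below and a median of -0.032. Cebpa, the master factor of granulocyte fate, was highest at 13.6 FPKM in the deletion library, against 9.28 FPKM in the control library, and Cdkn2c, a CDK4 inhibitor, stood at 13.7 against 11 FPKM. The Krüppel-like factor genes Klf4, at 26.6 against 34.3 FPKM in the deletion and control libraries, and Klf2, at 61.6 against 75.3 FPKM, were lowest. None of the 12 reached 2-fold. Of the unmeasured pair, Cdkn2b was listed at 0 in both libraries and Cdh2 in the deletion library.

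The cofactors through which the network acts were measured in both libraries. Of 15 coactivator genes none reached 2-fold, with 11 below 0 and a median of -0.11, which became -0.26 with equal summed FPKM, where all genes had -0.16. Kat2b, an acetyltransferase, was lowest at 5.70 FPKM in the deletion library, against 7.84 FPKM in the control library, followed by Trrap, the scaffold that MYC recruits, at 8.91 against 11.9 FPKM. The helicase genes Ruvbl1, at 83.2 against 76.6 FPKM, and Ruvbl2, at 66.6 against 61.4 FPKM in the deletion and control libraries, were highest. Zbtb17, which encodes the MYC partner MIZ1, was at 17.8 FPKM in the deletion library, against 18.9 FPKM in the control library. The 14 genes of the SIN3 corepressor complex, the effector of MXD proteins, had a median of 0.063 and none reached 2-fold, and the median became -0.079 with equal summed FPKM and -0.0026 when the scaling omitted mitochondrial genes. Sin3a was at 16.5 FPKM in the deletion library, against 15.7 FPKM in the control library, whereas its paralog Sin3b was lowest at 9.75 against 11.6 FPKM. The subunit gene Sap18 was highest at 21.3 against 17.5 FPKM in the deletion and control libraries, followed by Sap30 at 39.8 against 35.1 FPKM. Arid4b, also of the complex, was second lowest at 3.77 against 4.34 FPKM.

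Regulators of MYC protein stability showed 7 genes above 0 and 7 below, with none of 14 past 2-fold and a median of -0.032, which became 0.074 at a minimum mean of 5 FPKM and -0.18 with equal summed FPKM. Fbxw7, the ubiquitin ligase subunit that limits MYC in HSCs, was at 3.29 FPKM in the deletion library, against 4.21 FPKM in the control library, with a log2 ratio of -0.28 and a counting interval of -0.55 to -0.16. The ubiquitin ligase gene Huwe1 was lowest at 20.7 against 27.3 FPKM in the deletion and control libraries, followed by Axin1, a scaffold for MYC degradation, at 26.3 against 32.9 FPKM. Aurka, a kinase that stabilises MYCN, was at 22.9 FPKM in the deletion library, against 19.7 FPKM in the control library.

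Among 14 measured genes that act upstream of Myc in blood cells, Gfi1, a repressor active in stem cells and neutrophil progenitors, was 2-fold or more higher, at 14.5 FPKM in the deletion library, against 5.45 FPKM in the control library. Over all genes, 2.47% were higher by that rule. The granulocyte and monocyte progenitor markers given above, mostly higher in the deletion library, include Gfi1 itself and so are not a separate observation from it. The part of such progenitor cells in the differences of Gfi1 and Cebpa was not tested. Notch1, whose receptor activates Myc in T cell progenitors, was lowest at 1.74 FPKM in the deletion library, against 3.93 FPKM in the control library, a log2 ratio of -0.85 that stayed short of 2-fold with the added 1. Pim2, a kinase gene, followed at 2.59 against 4.04 FPKM. Pvt1, the noncoding neighbour of Myc, was second highest at 2.94 FPKM in the deletion library, against 2.20 FPKM in the control library (log2 ratio 0.30, counting interval 0.18 to 0.65 without the added 1). The list had 5 genes above 0, 9 below and a median of -0.14.

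**Figure D5:**
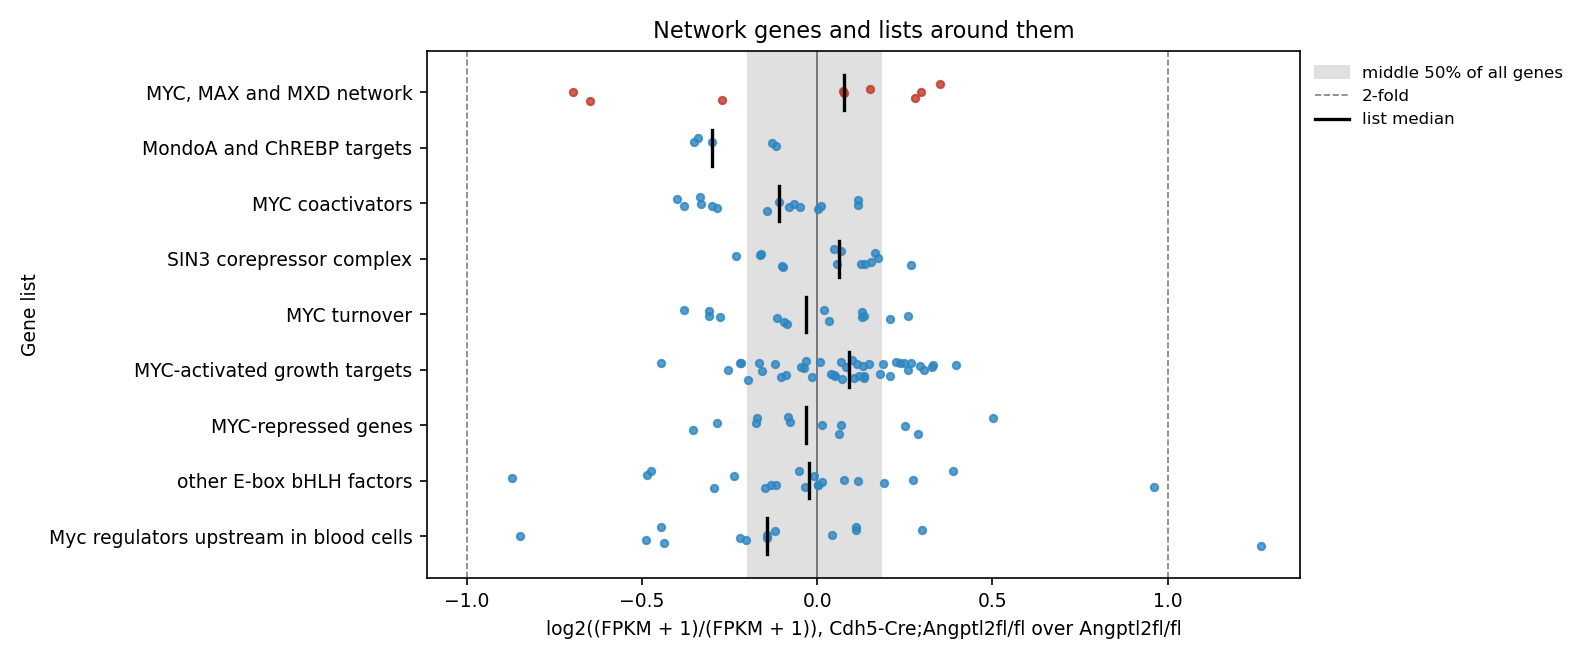
Log2((FPKM + 1)/(FPKM + 1)), Cdh5-Cre;Angptl2fl/fl over Angptl2fl/fl (x axis), for each measured gene of the network (red) and of 8 lists around it (blue). Black bars are list medians, the grey band is the middle 50% of all genes (-0.20 to 0.18), and dashed lines mark 2-fold. Gfi1 is the point past 2-fold.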

How the data were processed

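RNA of sorted HSCs was sequenced as 150 bp paired-end reads, per the labels' protocols. The authors deposited FPKM per Ensembl gene. The submitters' processing notes list Bowtie 0.12.2 and mm8 without their roles, and the counting program is not given in the sources used here. FPKM depends on each library's total and on the gene model. The file was split on white space, since 944 rows were padded and 1 lacked a tab.

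Exon lengths (54494 genes) and positions came from GENCODE M21 (GRCm38) and symbols (54408 genes) from a list of gene names. FPKM times length came within 0.02 of whole fragments for 96.1% of genes above 0 in the deletion library, against 96.5% in the control library, which gave depths and fragment numbers, and the computation was tested on simulated data. Python 3.11.15, numpy 2.4.6, scipy 1.17.1 and pandas 2.3.3 were used. Calls needed a mean of at least 1 FPKM and 2-fold on log2(FPKM + 1). Members and lists were chosen with earlier results of these data known. Genes named are all members and outer network genes, the 2 highest and 2 lowest of each list, those past 2-fold and 9 fixed genes. A gene that this rule names is not reported here. Of the marker lists, counts and sums are given, and the marker genes Car1, Lyz2, Prg2 and Cpa3 were named after their values were seen. Alternatives were other pseudocounts, minima, scalings and a lower threshold.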

Additional observations from a re-analysis of the deposited data

How the results depend on the processing

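With 1 library per genotype, leaving out a replicate was not possible. No paired analysis was possible because each genotype has a single library. No network gene passed 2-fold with pseudocounts of 0.1 and 5 FPKM, with no minimum, with a minimum mean of 5 FPKM, or under the 4 other scalings, and 2 passed a threshold of 1.5-fold. The median log2 ratio of the network genes became -0.060 when the libraries were scaled to equal summed FPKM (a common total), which moved the median of all genes to -0.16. Across the lists around the network, the number past the threshold was 1 as reported, 4 with a pseudocount of 0.1, 4 with a common total (Gfi1 and Tfec higher, Id2 and Notch1 lower), 4 at 1.5-fold and 0 with a pseudocount of 5. The log2 difference in activator to repressor mRNA of 0.30 became 0.16 without Mxd1, 0.26 without Mnt, 0.29 with Mga added and 0.26 with fragments in place of FPKM. The share of all genes past 2-fold was 5.86% as reported, 1.56% with a pseudocount of 5, 2.35% at a minimum of 5 FPKM, 12% with a common total and 1.24% among protein-coding genes, and 11.8% passed 1.5-fold. The common total of 1000000 kept the pseudocount of 1, which weighed less there. Its 4 calls and its 12% therefore mix the scaling with a smaller pseudocount. The protein-coding background and the ratio without Mxd1 were chosen after seeing the data. Depth limits Mycl and, with 56 fragments in the deletion library, Mxd3.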

Other observations

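Other helix-loop-helix factors that bind E-boxes share their sites in part with the network. The list of these genes also holds the ID genes, which encode inhibitors of such factors. Of 22 listed genes 20 were measured, 9 with ratios above 0 and 11 below, with a median of -0.023. None was past 2-fold with the added 1. Tfec, a relative of the lysosome regulator TFEB, came nearest to 2-fold, at 2.93 FPKM in the deletion library, against 1.02 FPKM in the control library. Its log2 ratio of 0.96 became 1.44 with a pseudocount of 0.1. Id2 and Id3, inhibitors that keep E proteins off DNA, were lowest. Id2 was at 1.92 FPKM in the deletion library, against 4.34 FPKM in the control library, and Id3 at 2.95 against 4.53 FPKM. The log2 ratio of Id2 was -0.87 and became -1.13, past 2-fold, with a pseudocount of 0.1. Arntl, which encodes the clock factor BMAL1, was second highest at 2.07 FPKM in the deletion library, against 1.35 FPKM in the control library.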
